A study of Homo sapiens with 12 samples.

Results

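The genes described here supply deoxynucleotides for DNA synthesis. They were taken by symbol from the count table: TYMS, TK1, RRM1, RRM2, DUT, DCK, DTYMK, SAMHD1 and DCTPP1, which are 9 of its 19225 entries. The table came from a study of FAT1, a large atypical cadherin, in oral squamous cell carcinoma (OSCC). Cells of the OSCC lines HN6 and HN30 were transfected with a scrambled siRNA (negative control, NC) or with 1 of 2 siRNAs against FAT1, named siFAT1-1 and siFAT1-2 by the study. Poly(A) RNA was sequenced 24 h later, giving 6 conditions with 2 libraries each, or 12 libraries. The second library of each condition came from an experiment at a separate time, so repeat 1 and repeat 2 share their number across the conditions of a line. The 8 libraries with a FAT1 siRNA are called KD. Each line is 1 established culture and the knockdown is transient, so the libraries carry no information on other tumors or on later times. All 9 genes passed the filter on low counts, as did 13887 genes in all.

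DNA replication draws on pools of the deoxynucleoside triphosphates that are small outside S phase. Ribonucleotide reductase, made of the RRM1 and RRM2 subunits, converts ribonucleotides into deoxyribonucleotides, and thymidylate is then made by TYMS from dUMP or recovered from thymidine by TK1, and phosphorylated further by DTYMK. DUT removes dUTP and supplies dUMP to TYMS, DCK salvages deoxycytidine and purine deoxynucleosides, and SAMHD1 and DCTPP1 break nucleotides down. Transcripts of RRM2, TYMS and TK1 are known to peak with S phase, whereas SAMHD1 is known for limiting dNTP levels in resting cells and for restricting retroviruses.

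RefSeq held promoter windows on GRCh38.p14 for all 9 genes, each reaching from 250 bases before a transcription start to 50 bases after it. The windows below are shown for 4 genes picked by their fitted values. DTYMK had lower fitted levels with both siRNAs, TK1 and SAMHD1 had the largest fitted differences between the siRNAs, and RRM2 had the lowest fold change in HN30. None of these differences was called at an adjusted p under 0.05 in the main edgeR fits. They are written 5′ to 3′ on the strand of the gene. Capitals mark CCAAT on either strand (read as ATTGG on the other) and TTTAAA, one of the letter strings of the cell cycle homology region. The windows are chr17:78187003-78187302 on the minus strand for TK1, chr2:10122489-10122788 on the plus strand for RRM2, chr2:241686766-241687065 on the minus strand for DTYMK and chr20:36951659-36951958 on the minus strand for SAMHD1.
TK1: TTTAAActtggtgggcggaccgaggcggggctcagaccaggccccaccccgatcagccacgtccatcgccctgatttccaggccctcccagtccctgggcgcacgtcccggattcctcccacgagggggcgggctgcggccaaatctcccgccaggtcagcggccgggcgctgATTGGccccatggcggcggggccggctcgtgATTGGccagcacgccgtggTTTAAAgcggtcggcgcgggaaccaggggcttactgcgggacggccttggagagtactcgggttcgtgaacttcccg
RRM2: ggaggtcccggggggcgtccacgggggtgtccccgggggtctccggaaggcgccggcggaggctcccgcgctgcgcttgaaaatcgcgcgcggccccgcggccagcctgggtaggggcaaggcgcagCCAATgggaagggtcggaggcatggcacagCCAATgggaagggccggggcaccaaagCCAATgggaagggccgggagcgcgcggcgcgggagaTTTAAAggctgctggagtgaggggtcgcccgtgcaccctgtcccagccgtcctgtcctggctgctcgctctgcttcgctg
DTYMK: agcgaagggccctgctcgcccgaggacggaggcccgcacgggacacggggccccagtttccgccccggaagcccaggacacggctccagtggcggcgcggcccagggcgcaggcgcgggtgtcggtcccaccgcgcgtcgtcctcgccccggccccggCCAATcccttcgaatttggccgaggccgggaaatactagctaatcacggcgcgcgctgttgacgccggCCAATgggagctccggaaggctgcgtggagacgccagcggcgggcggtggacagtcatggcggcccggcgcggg
SAMHD1: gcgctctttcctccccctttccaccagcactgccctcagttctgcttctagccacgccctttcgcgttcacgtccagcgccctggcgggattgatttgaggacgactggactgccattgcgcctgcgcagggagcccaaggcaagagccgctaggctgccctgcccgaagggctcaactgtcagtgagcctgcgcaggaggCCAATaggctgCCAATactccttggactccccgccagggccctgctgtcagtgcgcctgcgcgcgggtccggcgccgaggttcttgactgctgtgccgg
The RRM2 window held CCAAT 3 times, starting 123, 93 and 66 bases before the start site, and each of the other 3 windows held it 2 times. Among the 9 genes, 4 held 2 or more CCAAT strings (44.4%), against 10.8% of 34796 RefSeq promoter windows of 300 bases, and 5 held at least 1 (55.6%), against 34.6%. The string TTTAAA lay 30 bases before the start of RRM2 and 27 bases before that of TK1, which held it a second time at its far end. It was present in 12.2% of all windows. Its partner TTTGAA was found on either strand in RRM1 alone (15.2% of all windows), and TTTNNCGC, a core that E2F factors can bind, in TYMS and DCK (6.86% of all windows). GGGCGG was found in 6 of the 9 (44.9% of all windows). For RRM1 and DCTPP1 the RefSeq window started from a site 114 and 230 bases away from the start of the MANE Select transcript, the agreed reference transcript of a gene. These matches describe letters, not bound sites. Of the strings not in capitals, GGGCGG alone occurs in the windows shown, in TK1 and DTYMK.

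The targeted gene was examined first. Levels are given as CPM, counts scaled to a common library size, with TMM factors that correct for composition. The HN6 NC libraries of repeat 1 and repeat 2 held FAT1 levels of 56.8 and 66.7 CPM, those of siFAT1-1 held 7.61 and 13.5, and those of siFAT1-2 held 13.2 and 21.4. The same order of groups gave 13.6 and 14.7, 4.86 and 6.26, and 10.8 and 7.74 CPM in HN30. FAT1 was below both controls of the line in every KD library, and its NC level was much lower in HN30. As a share of the NC mean of the line, siFAT1-1 and siFAT1-2 left 17.1% and 28% in HN6. In HN30 they left 39.3% and 65.4%, so the knockdown was weakest with siFAT1-2 in HN30. Over both lines FAT1 fell by 1.59 on the log2 scale (SE 0.308, adjusted p = 0.0404, edgeR). FAT1 was also called by limma-voom (adjusted p = 0.0217) and DESeq2 (adjusted p = 0.000302). The edgeR call was lost with a replicate block for the repeat (adjusted p = 0.0757) and without a cell line term (adjusted p = 0.331). It was also lost in most fits that left out 1 library, in which the log2 fold change lay between -1.77 and -1.39. Within HN30 the difference was -0.98 (adjusted p = 0.204, edgeR). Libraries held 26430049 to 47639010 counts, and the 9 genes had 218 to 20341 counts each per library. Of the squamous epithelial markers, 9 of 9 passed the filter and summed to 1542 to 6267 CPM, though KRT14 was at 0 in some libraries. The leukocyte markers summed to at most 0.796 CPM, the endothelial markers to at most 7.87 CPM, and 3 of 5 fibroblast markers passed with a sum of 12.5 to 164 CPM.

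FAT1 knockdown was first compared with NC over both lines. Of the 9 genes, 8 had lower fitted levels and SAMHD1 a higher one, and their median log2 fold change was -0.59, beside 0.02 for all genes tested. At an adjusted p under 0.05 edgeR called none of the 9, while 0.547% of all genes were called. At an unadjusted P under 0.05 it called 1 of the 9, DTYMK, in a direction that 7.75% of all genes shared. DESeq2 called 1 of the 9 at the adjusted threshold, again DTYMK (adjusted p = 0.0433), and limma-voom called none. By edgeR, none of the 9 was a differentially expressed gene (DEG) at the thresholds of the study, which 3.07% of all genes met. These were P under 0.05 with an absolute log2 fold change above 1, which the study applied to limma-voom fits.

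**Figure D1:**
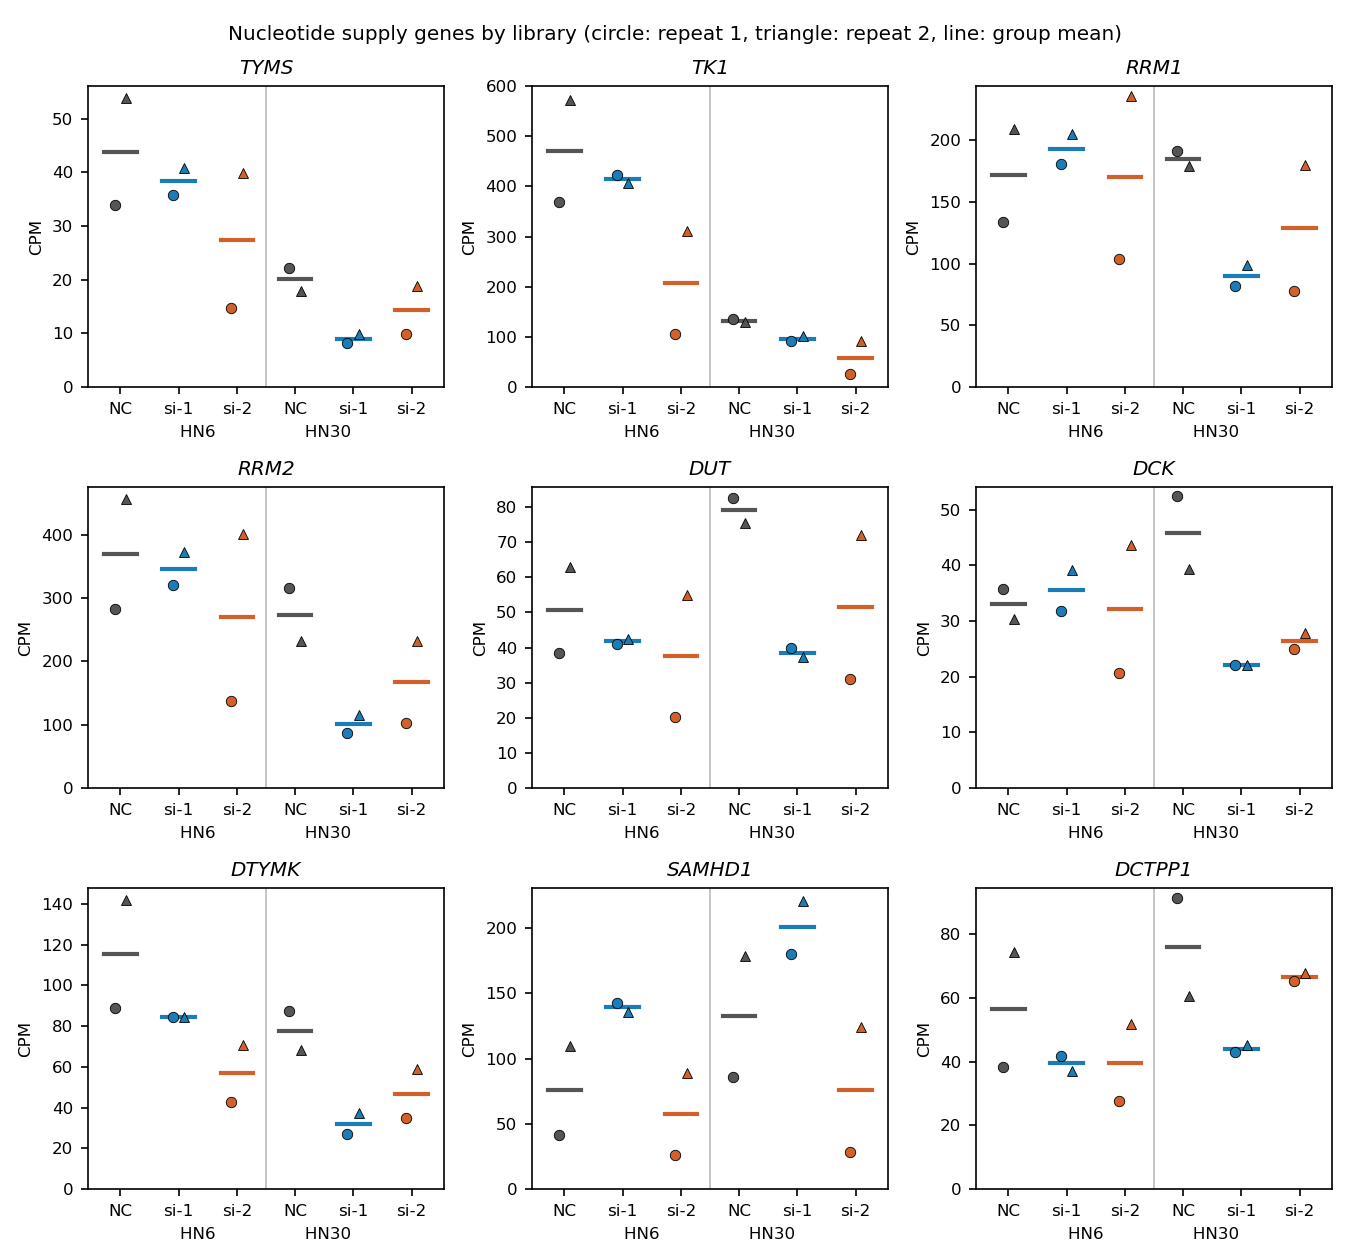
Level of each gene in every library, in TMM-scaled CPM on a linear axis from 0, with circles for repeat 1, triangles for repeat 2 and lines for the mean of the 2 libraries (si-1 is siFAT1-1, si-2 is siFAT1-2). DTYMK is under both controls of the line in all 8 KD libraries, and SAMHD1 is high with siFAT1-1 and low in the siFAT1-2 libraries of repeat 1.

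The thymidylate branch held the gene with the most regular change. DTYMK, thymidylate kinase, makes dTDP from dTMP and serves both the de novo and the salvage route (GRCh38 chr2:241675747-241686944, minus strand). In HN6 its level was 88.7 and 142 CPM in NC, 84.6 and 84.6 with siFAT1-1, and 42.6 and 70.9 with siFAT1-2. The HN30 levels were 87.2 and 68.2 CPM in NC, 26.9 and 37.2 with siFAT1-1, and 35.1 and 58.7 with siFAT1-2. All 8 KD libraries were thus under both controls, although by only a small margin for HN6 siFAT1-1, where the NC library of repeat 1 was at nearly the same level. DTYMK was the one gene of the 9 with this pattern, which 3.15% of all genes showed. Over both lines its log2 fold change was -0.84 (SE 0.237, adjusted p = 0.132, edgeR). Averaged over the lines it was nearly equal for the siRNAs, at -0.83 with siFAT1-1 and -0.86 with siFAT1-2 (adjusted p = 0.144 and 0.0692, edgeR). The fitted difference between the siRNAs was 0.03 (SE 0.286), but its direction was not the same in the lines. In repeats 1 and 2, siFAT1-1 minus siFAT1-2 was 0.99 and 0.25 in HN6, and -0.38 and -0.66 in HN30.

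TYMS, thymidylate synthase, methylates dUMP to dTMP (chr18:657653-673578, plus strand). Its level in HN6 was 33.9 and 53.8 CPM in NC, 35.7 and 40.9 with siFAT1-1, and 14.8 and 39.9 with siFAT1-2. HN30 gave 22.2 and 17.9 CPM in NC, 8.15 and 9.81 with siFAT1-1, and 9.83 and 18.9 with siFAT1-2. Its KD and NC libraries overlapped in both lines, in HN30 through the siFAT1-2 library of repeat 2 alone. The log2 fold change over both lines was -0.60 (SE 0.292, adjusted p = 0.368, edgeR). The exons of TYMS overlap those of ENOSF1 and TYMSOS on the other strand, and the setting for strand used in counting is not given in the sources used here, so reads of these genes cannot be told apart from those of TYMS. The annotation also lists 2 pseudogenes of TYMS.

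TK1, the cytosolic thymidine kinase of proliferating cells, returns thymidine to the pool (chr17:78174091-78187233, minus strand). Its level in HN6 was 369 and 573 CPM in NC, 423 and 407 with siFAT1-1, and 105 and 311 with siFAT1-2. In HN30 it was 135 and 129 CPM in NC, 91.2 and 101 with siFAT1-1, and 25.3 and 91.1 with siFAT1-2. The 4 siFAT1-2 libraries were all under both controls, whereas the siFAT1-1 libraries were under them in HN30 and between them in HN6. How many of all genes had this pattern was not counted, but 28.9% had P under 0.05 for siFAT1-2 against NC by edgeR. The siFAT1-2 mean was 44.1% of the NC mean in HN6 and 44.1% in HN30, against 88% and 72.8% with siFAT1-1. With siFAT1-2 the log2 fold change over both lines was -1.18 (SE 0.371, adjusted p = 0.0581, edgeR), just outside the threshold, and TK1 was the one DEG of the 9 in this comparison, in which 9.06% of all genes were DEGs. The call depended on the fit. The adjusted p was 0.0291 with a replicate block, 0.0266 by limma-voom, 0.0178 by DESeq2 and 0.0475 without the filter on low counts. It was 0.023 without repeat 2 of HN30 siFAT1-2, 0.0394 without repeat 2 of HN6 siFAT1-2, and up to 0.126 without another library. With siFAT1-1 the value was -0.32 (SE 0.367, adjusted p = 0.675, edgeR).

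DUT, the dUTPase that keeps uracil out of DNA and supplies dUMP (chr15:48331011-48343373, plus strand), was at 38.6 and 63 CPM in HN6 NC, 41.1 and 42.5 with siFAT1-1, and 20.1 and 54.9 with siFAT1-2. HN30 libraries held it at 82.6 and 75.6 CPM in NC, 39.8 and 37.2 with siFAT1-1, and 31 and 72.2 with siFAT1-2. The HN30 groups did not overlap, though siFAT1-2 of repeat 2 came close to NC, whereas in HN6 only the siFAT1-2 library of repeat 1 lay outside the NC range. Its log2 fold change over both lines was -0.59 (SE 0.279, adjusted p = 0.352, edgeR). The annotation lists 8 pseudogenes of DUT, so its counts are uncertain.

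Of the reductase subunits, RRM2 is the limiting one in cycling cells and RRM1 carries the catalytic site. RRM2 (chr2:10120698-10211725, plus strand) was at 283 and 457 CPM in HN6 NC, 320 and 373 with siFAT1-1, and 137 and 402 with siFAT1-2. The HN30 values were 316 and 232 CPM in NC, 87.5 and 115 with siFAT1-1, and 103 and 233 with siFAT1-2. Only the siFAT1-2 library of repeat 1 lay below the NC range in HN6, while in HN30 3 of the 4 KD libraries were at less than 1 part in 2 of either NC library and the remaining one was at the level of the lower NC library. RRM1 (chr11:4094707-4138932, plus strand) was at 134 and 209 CPM in HN6 NC, 181 and 205 with siFAT1-1, and 104 and 236 with siFAT1-2, and in HN30 at 191 and 179 CPM in NC, 81.8 and 98.6 with siFAT1-1, and 78.1 and 180 with siFAT1-2. It followed RRM2 in HN30 and did not leave the NC range in a common direction in HN6. Over both lines the log2 fold changes were -0.66 for RRM2 (SE 0.321, adjusted p = 0.366, edgeR) and -0.36 for RRM1 (SE 0.283, adjusted p = 0.585, edgeR). The annotation holds 3 pseudogenes of RRM2.

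DCK (chr4:70992538-71030914, plus strand), the kinase that also activates cytidine analog drugs such as gemcitabine, was at 35.8 and 30.4 CPM in HN6 NC, 31.9 and 39.1 with siFAT1-1, and 20.6 and 43.6 with siFAT1-2. In HN30 it was at 52.5 and 39.3 CPM in NC, 22.2 and 22.2 with siFAT1-1, and 24.9 and 27.9 with siFAT1-2. Its HN30 groups did not overlap, and in HN6 KD libraries lay on both sides of NC. The log2 fold change over both lines was -0.47 (SE 0.236, adjusted p = 0.381, edgeR), and its exons overlap those of MOB1B on the same strand. DCTPP1 (chr16:30423615-30430030, minus strand), a pyrophosphatase that clears dCTP and modified cytidine nucleotides, was at 38.4 and 74.5 CPM in HN6 NC, 41.7 and 37.2 with siFAT1-1, and 27.6 and 51.7 with siFAT1-2. In HN30 it was at 91.3 and 60.7 CPM in NC, 43.1 and 45.1 with siFAT1-1, and 65.2 and 67.8 with siFAT1-2. In HN30 DCTPP1 was below NC with siFAT1-1 alone, and with siFAT1-2 it stayed inside the NC range in both repeats. Its log2 fold change was -0.64 with siFAT1-1 (SE 0.253, adjusted p = 0.194, edgeR) and -0.34 with siFAT1-2 (SE 0.253, adjusted p = 0.394, edgeR).

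**Figure D2:**
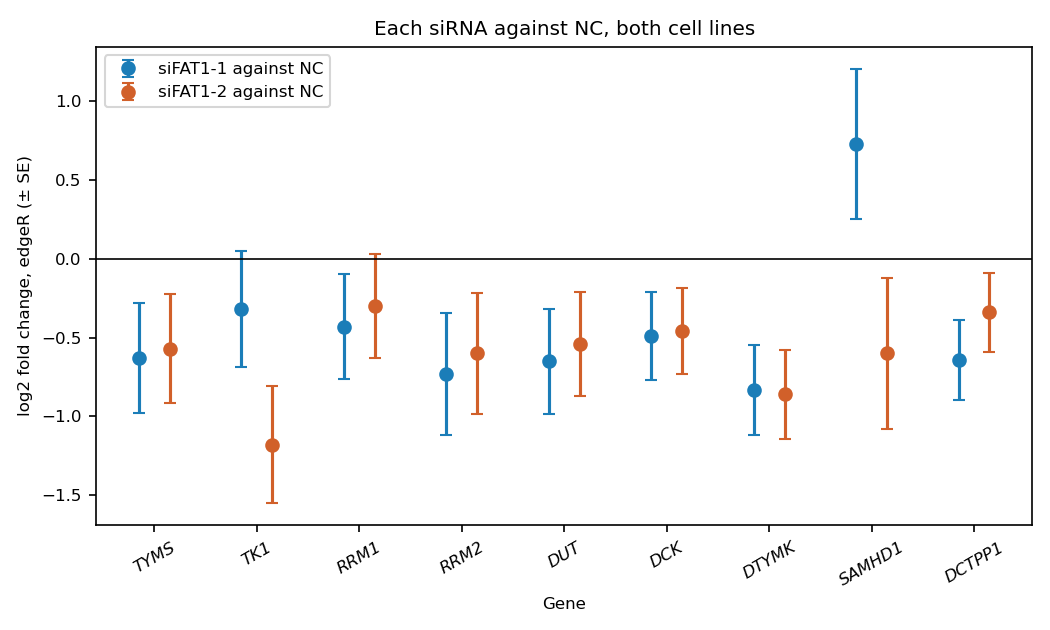
Log2 fold change of each gene for siFAT1-1 (blue) and siFAT1-2 (orange) against NC over both lines, fitted by edgeR, with bars of 1 standard error. DTYMK is at -0.83 and -0.86, TK1 at -0.32 and -1.18, and SAMHD1 at 0.73 and -0.60.

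SAMHD1, the dNTP triphosphohydrolase that empties the pool (chr20:36890229-36951893, minus strand), had a pattern of its own among the 9. In HN6 it was at 41.5 and 110 CPM in NC, 143 and 136 with siFAT1-1, and 25.8 and 89.2 with siFAT1-2. In HN30 it was at 85.6 and 179 CPM in NC, 180 and 221 with siFAT1-1, and 28.4 and 124 with siFAT1-2. Both siFAT1-1 libraries exceeded both NC libraries in each line, in HN30 by little in repeat 1, siFAT1-2 libraries of repeat 1 lay below them, and those of repeat 2 lay between. The share of all genes with such a pattern was not counted. NC itself differed between the repeats, by 1.41 in HN6 and 1.06 in HN30 on the log2 scale, with repeat 2 higher in both lines. Averaged over the siRNAs the log2 fold change was 0.22 (SE 0.515, adjusted p = 0.874, edgeR), since it was 0.73 with siFAT1-1 (SE 0.477, adjusted p = 0.424) and -0.60 with siFAT1-2 (SE 0.477, adjusted p = 0.43). Its exons overlap those of TLDC2 on the other strand, as those of DCTPP1 overlap ZNF771.

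The siRNAs were then compared directly. SAMHD1 was higher with siFAT1-1 than with siFAT1-2 by 2.47 and 0.61 in HN6 and by 2.66 and 0.84 in HN30, on the log2 scale in repeats 1 and 2. The fitted difference was 1.34 (SE 0.483, adjusted p = 0.0738, edgeR). With a replicate block, which takes up the shift between repeats, it was 1.66 (SE 0.343, adjusted p = 0.0114), and limma-voom and DESeq2 gave adjusted p = 0.0302 and 0.0222. When 1 library was left out the adjusted p stayed at or above 0.05 in 11 of 12 fits, up to 0.155, and was 0.0399 without repeat 2 of HN6 siFAT1-2. TK1 was likewise higher with siFAT1-1 in each pair of libraries, by 2.01 and 0.39 in HN6 and by 1.84 and 0.15 in HN30, with a fitted difference of 0.86 (SE 0.369, adjusted p = 0.123, edgeR). The replicate block gave 1.04 (adjusted p = 0.0492), limma-voom an adjusted p of 0.0474 and DESeq2 one of 0.0758. For TK1, too, 11 of 12 fits that left out 1 library stayed at or above 0.05, up to 0.243, the exception being 0.0375 without repeat 2 of HN30 siFAT1-2. For both genes the difference was larger in repeat 1 than in repeat 2 in each line. The fitted differences of the other 7 genes over both lines were -0.30 to 0.03, with P of 0.257 or above (edgeR). These fits average over the lines. TYMS was higher with siFAT1-1 than with siFAT1-2 in HN6, by 1.26 and 0.04 in repeats 1 and 2. In HN30 it was lower, at -0.27 and -0.94. DTYMK likewise changed direction between the lines. For RRM1, RRM2, DUT, DCK and DCTPP1 the direction in HN6 differed between the repeats. None of the 9 was called at an adjusted p under 0.05, while 17.4% of all genes were called. At P under 0.05 there were 2 of the 9, a smaller share than the 33.8% of all genes, and SAMHD1 was the one DEG where 12.4% of all genes were DEGs. For siFAT1-1 against NC, 3.25% of all genes were called and 5.58% were DEGs, and for siFAT1-2 against NC 11.8% were called. In both comparisons with NC edgeR called 0 of the 9 at the adjusted threshold and 2 at P under 0.05, namely DTYMK and DCTPP1 with siFAT1-1 and DTYMK and TK1 with siFAT1-2. Of all genes 19% had P under 0.05 with siFAT1-1 and 28.9% with siFAT1-2, so the share of the 9 was near that of all genes. For siFAT1-1 DESeq2 and limma-voom also called 0 at the adjusted threshold, and for siFAT1-2 each called 2, TK1 and DTYMK. The comparisons with NC share the NC libraries.

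**Figure D3:**
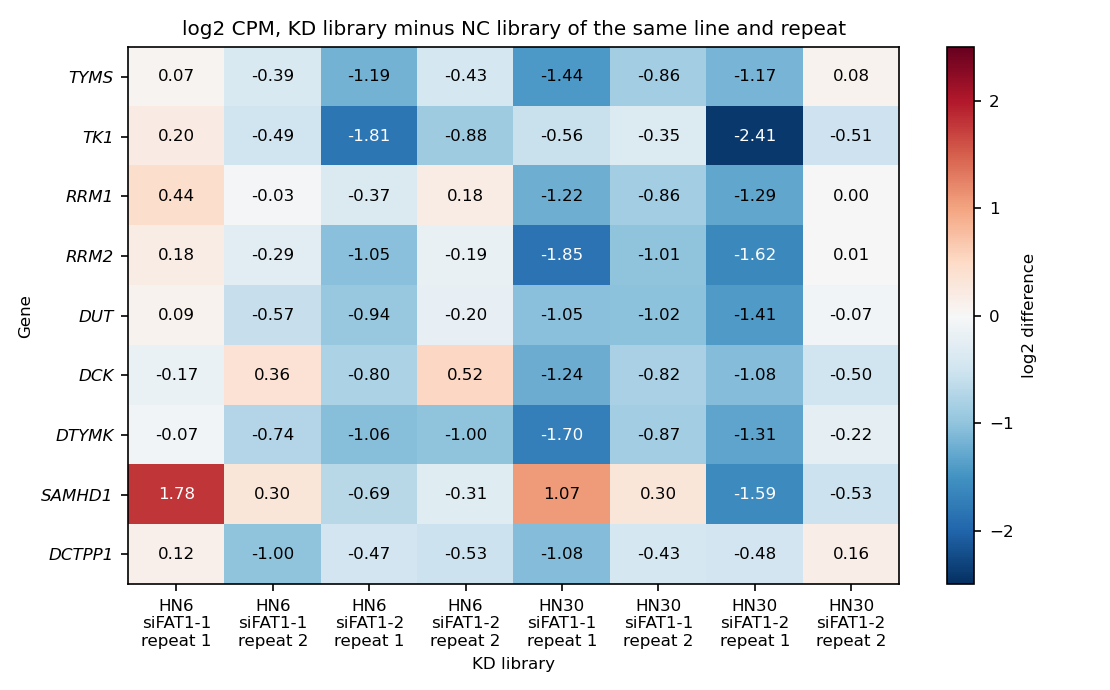
Log2 CPM of each KD library minus the NC library of the same line and repeat, for the 9 genes, with the value printed in each cell and colored from blue (lower) to red (higher). SAMHD1 is above 0 in the 4 siFAT1-1 columns and below 0 in the 4 siFAT1-2 columns, and the HN30 siFAT1-2 column of repeat 2 is close to 0 for TYMS, RRM1, RRM2 and DUT.

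Set against the NC library of their own repeat, KD libraries differed widely. In HN6, siFAT1-2 of repeat 1 was lower for 9 of 9 genes with a median log2 difference of -0.94, and siFAT1-1 of repeat 1 for 2 of 9 with a median of 0.12. Repeat 2 gave 7 of 9 genes lower with either siRNA, with medians of -0.39 for siFAT1-1 and -0.31 for siFAT1-2. In HN30, siFAT1-1 was lower for 8 of 9 genes in both repeats, with medians of -1.22 and -0.86, the exception being SAMHD1. The siFAT1-2 libraries of HN30 gave 9 of 9 with a median of -1.31 in repeat 1 and 5 of 9 with a median of -0.07 in repeat 2. The siFAT1-2 libraries thus differed from each other by more than those of siFAT1-1 did: RRM2, for example, was higher in repeat 2 than in repeat 1 by 1.55 in HN6 and 1.18 in HN30 with siFAT1-2, and by 0.22 and 0.39 with siFAT1-1.

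Within the lines, the median log2 fold change of the 9 genes was -0.36 in HN6 and -0.82 in HN30, beside -0.03 and -0.01 for all genes. In HN6, the median was 0.01 without repeat 2 of NC, -0.68 without repeat 1 of NC, -0.09 without repeat 1 of siFAT1-2 and -0.78 without repeat 2 of siFAT1-2. In HN30 it lay between -1.14 and -0.59 when 1 library was left out. In HN30, 3 of the 9 genes were lower at P under 0.05, a direction and threshold met by 9.07% of all genes: RRM2 at -1.07 (SE 0.421), DTYMK at -1.0 (SE 0.296) and DCK at -0.92 (SE 0.28), all by edgeR with adjusted p of 0.193 or above. That count depended on single libraries. It fell without repeat 1 of HN30 NC or of either HN30 siRNA. It rose without either repeat of HN6 siFAT1-2 and without repeat 2 of HN30 siFAT1-2. The share of all genes lower in those fits is not given here, so the changes cannot be set against all genes. RRM2 and DTYMK were DEGs in HN30, where 5.54% of all genes were, and 4 genes, TK1, DUT, DCK and DTYMK, had all 4 KD libraries below both NC libraries, as 11.1% of all genes did. In HN6 DTYMK alone was lower at P under 0.05 (-0.73, SE 0.297, adjusted p = 0.314, edgeR), where 8.39% of all genes were, and no gene of the 9 was a DEG, where 4.04% of all genes were. At an adjusted p under 0.05 edgeR, DESeq2 and limma-voom called 0 of the 9 in either line, and edgeR called 0.0072% of all genes in HN6 and 0.0576% in HN30.

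The response to knockdown was tested for a difference between the lines. The interaction, HN6 minus HN30, was above 0 for 8 of the 9 genes with a median of 0.38, but it was called for 0 of the 9 and for 0% of all genes at an adjusted p under 0.05 by edgeR. DCK had the largest value among the 9, 0.95 (SE 0.408, adjusted p = 0.974, edgeR), and was the one with P under 0.05, as were 4% of all genes. DESeq2 and limma-voom also called 0 of the 9. These fits do not show that the lines respond alike. The median ran from 0.02 without repeat 2 of HN6 siFAT1-2 to 0.84 without repeat 2 of HN30 siFAT1-2, with 0.08 and 0.82 without repeat 1 and repeat 2 of HN6 NC, 0.18 without repeat 1 of HN30 siFAT1-2 and 0.65 without repeat 1 of HN6 siFAT1-2.

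The control libraries differed between the lines for TK1. It was at 471 ± 144 CPM (SD, 2 libraries) in HN6 NC and 132 ± 3.79 CPM in HN30 NC, a log2 difference of 1.83 (SE 0.585, adjusted p = 0.037, edgeR), in a comparison that called 32.6% of all genes. The difference was 1.49 (adjusted p = 0.137) without repeat 2 of HN6 NC, and the call was also lost without repeat 1 or repeat 2 of HN30 NC (adjusted p = 0.126 and 0.155), of HN6 siFAT1-1 (0.0737 and 0.0572) and of HN30 siFAT1-1 (0.0567 and 0.0563). TYMS followed at 1.13 (SE 0.467, adjusted p = 0.089, edgeR), with an adjusted p of 0.0492 by DESeq2, 0.0361 without repeat 1 of HN6 siFAT1-2 and 0.0369 without repeat 2. TK1 and TYMS were DEGs here, as were 30.7% of all genes. The other 7 genes differed by -0.80 to 0.57 with adjusted p of 0.239 or above.

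Levels were also set side by side per kilobase of the union of annotated exons. In HN6 NC, TK1 was first at 255 ± 78.2 CPM per kb (SD, 2 libraries), followed by DTYMK at 48 ± 15.6, RRM1 at 40.5 ± 12.7, RRM2 at 40.5 ± 13.5 and DCTPP1 at 36.1 ± 16.3, which overlap within their spread. TYMS at 18.1 ± 5.82 and DUT at 13.8 ± 4.69 came next, and DCK at 10.7 ± 1.21 and SAMHD1 at 7.01 ± 4.49 were last. In HN30 NC, TK1 was at 71.6 ± 2.05, DCTPP1 at 48.6 ± 13.8, RRM1 at 43.8 ± 2.02, DTYMK at 32.4 ± 5.6, RRM2 at 29.9 ± 6.54, DUT at 21.5 ± 1.35, DCK at 14.8 ± 3.01, SAMHD1 at 12.2 ± 6.11 and TYMS at 8.27 ± 1.26. TK1 stood above the rest by more than the spread, whereas DCTPP1 and RRM1 did not differ beyond theirs, nor did DTYMK and RRM2. The order depends on the length used, since the annotated exons of RRM2 span 9153 bases and its coding sequence 1167. Per kilobase of coding sequence RRM2 rose to second place in HN6 NC and to first in HN30 NC. TK1 remained first in HN6 NC under all 3 lengths tried, DCK and SAMHD1 the last pair there, and TYMS last in HN30 NC.

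Because these genes are used in S phase, lists of 40 S phase and 54 G2/M genes, with the 9 genes left out, were followed beside them as mean log2 CPM relative to the NC mean of each line. In HN30 the S phase mean was -1.99 and -1.58 in the siFAT1-1 libraries, -1.20 in siFAT1-2 of repeat 1 and -0.40 in siFAT1-2 of repeat 2, where the median of the 9 genes was -1.03, -1.02, -1.25 and -0.14. In HN6 the S phase mean was -0.19 and 0.08 with siFAT1-1, and -0.75 and 0.66 with siFAT1-2, where the median of the 9 was -0.17, -0.06, -1.39 and 0.15. The G2/M mean was 0.98 in HN6 siFAT1-2 of repeat 2, the highest of the 12 libraries, and -1.58 in HN30 siFAT1-2 of repeat 1, the lowest. The 4 libraries in which the median of the 9 was below -1 also had the lowest S phase means. The HN6 NC libraries did not follow this order, with a median of the 9 of -0.34 in repeat 1 and 0.34 in repeat 2 beside S phase means of 0.05 and -0.05. Over both lines the S phase list had a median log2 fold change of -0.60 and 39 of 40 genes lower, 14 of them at P under 0.05 and 0 at an adjusted p under 0.05 by edgeR. In HN30 40 of 40 were lower with a median of -1.30, and 31 of them at P under 0.05, where 9.07% of all genes were lower at that threshold. In HN6 21 of 40 were lower with a median of -0.02, and 1 of them at P under 0.05. Fewer cells in S phase and less RNA of these genes per cell cannot be told apart in bulk RNA, and the part of the S phase share in the results for the 9 genes was not tested.

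**Figure D4:**
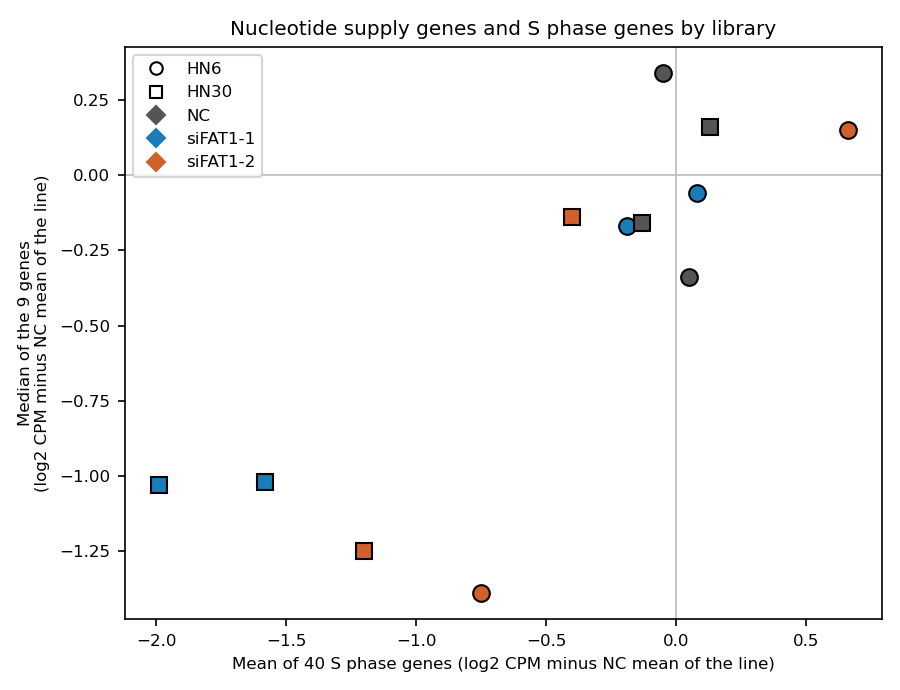
Median of the 9 genes (vertical) against the mean of 40 S phase genes (horizontal) in each of the 12 libraries, both as log2 CPM minus the NC mean of the line, with circles for HN6 and squares for HN30 and color for the siRNA. The libraries with the lowest S phase means, HN30 siFAT1-1 at -1.99 and -1.58 and HN30 siFAT1-2 at -1.20, lie low on both axes, and HN6 siFAT1-2 of repeat 1 is lowest for the 9 genes at -1.39.

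The wider nucleotide metabolism was read from a list of 52 genes, of which 43 are not among the 9. Over both lines 40 of the 52 were lower, with a median log2 fold change of -0.19, and 7 were lower and 0 higher at P under 0.05, where 7.75% of all genes were lower. Without the 9, the median was -0.15 and 6 genes had P under 0.05, none at an adjusted p under 0.05 by edgeR: GUK1, guanylate kinase, at -0.80 (SE 0.209), PRPS2, a phosphoribosyl pyrophosphate synthetase, at -0.85 (SE 0.255), CDA, cytidine deaminase, at -0.62 (SE 0.2), DHODH of pyrimidine synthesis at -0.60 (SE 0.24), NUDT1, which clears oxidized purine nucleotides, at -0.59 (SE 0.231) and ATIC of purine synthesis at -0.54 (SE 0.199). The median was -0.36 for ribonucleotide reductase (2 of 3 genes lower), -0.35 for the thymidylate cycle (5 of 5), -0.32 for deoxynucleoside salvage (6 of 6), -0.25 for de novo purine synthesis (10 of 12), -0.15 for pool cleaning and breakdown (7 of 11), -0.11 for de novo pyrimidine synthesis (4 of 5), -0.09 for nucleotide kinases (4 of 7) and -0.05 for purine salvage (2 of 3). GUK1 and CDA fell with siFAT1-1 at -1.15 (SE 0.172, adjusted p = 0.00498, edgeR) and -0.91 (SE 0.18, adjusted p = 0.0179, edgeR). GUK1 and CDA were also lower at P under 0.05 within each line, PRPS2 in HN30 and ATIC in HN6. In HN6 PNP, purine nucleoside phosphorylase, was at -0.75 (SE 0.193, adjusted p = 0.173, edgeR), PPAT, the first enzyme committed to purine synthesis, at 0.89 (SE 0.362, adjusted p = 0.317, edgeR) and ADSS, adenylosuccinate synthase, at 0.54 (SE 0.19, adjusted p = 0.261, edgeR).

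**Figure D5:**
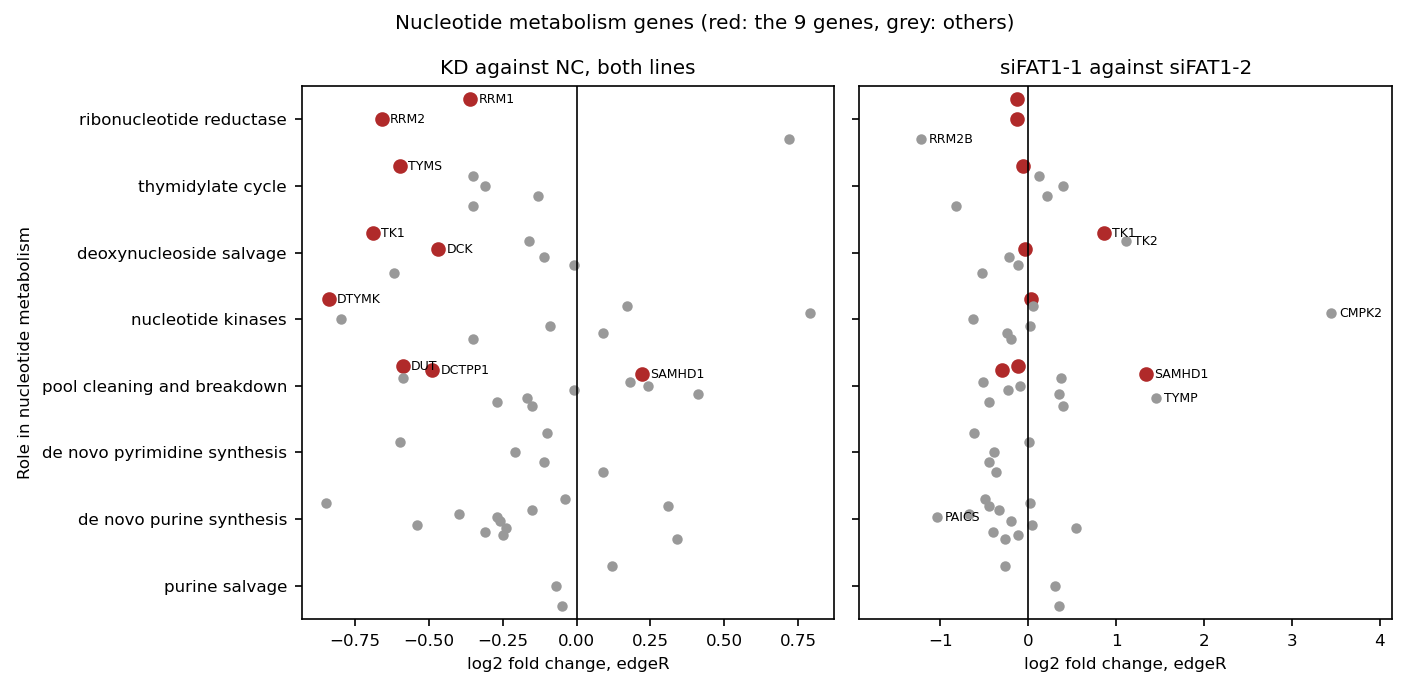
Log2 fold change fitted by edgeR for 52 nucleotide metabolism genes by role, KD against NC over both lines (left) and siFAT1-1 against siFAT1-2 (right), with the 9 genes in red and the others in grey. On the left DTYMK is at -0.84 and SAMHD1 at 0.22, and on the right SAMHD1 at 1.34 and TK1 at 0.86 are the red points away from 0, while CMPK2 is at 3.44.

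Partners and mitochondrial counterparts of the 9 genes were read next. RRM2B, the reductase subunit induced by p53 that serves cells outside S phase, was at 77.7 and 64.7 CPM in HN30 NC, 61.3 and 50.6 with siFAT1-1, and 245 and 131 with siFAT1-2. In HN6 it was at 21.9 and 3.27 CPM in NC, 15.6 and 14.7 with siFAT1-1, and 26.4 and 22.4 with siFAT1-2. All 4 siFAT1-2 libraries were above both NC libraries, although the HN6 NC libraries were far apart. With siFAT1-2 its log2 fold change was 1.20 (SE 0.441, adjusted p = 0.0956, edgeR), where RRM2 was at -0.60, and with siFAT1-1 it was -0.01. TK2, the mitochondrial thymidine kinase, was at 17.9 and 17.7 CPM in HN6 NC, 25.5 and 19.6 with siFAT1-1, and 11.2 and 9.51 with siFAT1-2, and in HN30 at 24 and 23.4, 27.5 and 28.5, and 8.59 and 17.6. Its NC and KD libraries did not overlap for either siRNA, higher with siFAT1-1 and lower with siFAT1-2. For RRM2B and TK2, the share of all genes with such patterns was not counted. TK2 fell with siFAT1-2 by 0.82 on the log2 scale (SE 0.215, adjusted p = 0.0311, edgeR) and differed between the siRNAs by 1.11 (SE 0.216, adjusted p = 0.00621, edgeR). DGUOK, the mitochondrial deoxyguanosine kinase, had a log2 fold change of -0.11 (SE 0.146, adjusted p = 0.756, edgeR) over both lines.

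Between the siRNAs, 15 of the 52 genes had P under 0.05 and 5 an adjusted p under 0.05 by edgeR, both smaller shares than the 33.8% and 17.4% of all genes. The latter were TK2, TYMP, CMPK2, GUK1 and PAICS, of which TYMP, CMPK2 and PAICS were chosen after their values were seen. TYMP, thymidine phosphorylase, which degrades thymidine, was higher with siFAT1-1 by 1.45 (SE 0.282, adjusted p = 0.0063, edgeR) and fell with siFAT1-2 by 1.06 on the log2 scale (SE 0.28, adjusted p = 0.0313, edgeR). CMPK2, a mitochondrial nucleotide kinase known as interferon-inducible, was at 1.02 and 7.92 CPM in HN6 NC, 25.1 and 7.26 with siFAT1-1, and 0.166 and 1.77 with siFAT1-2. HN30 gave 18.1 and 66.1 CPM in NC, 115 and 119 with siFAT1-1, and 0.634 and 30.4 with siFAT1-2. Like SAMHD1 it was higher in repeat 2 than in repeat 1 of NC in both lines, and against NC of the same repeat it was higher in 3 of 4 libraries with siFAT1-1 and lower in 4 of 4 with siFAT1-2. Its difference between the siRNAs was 3.44 (SE 1.02, adjusted p = 0.0383, edgeR). GUK1 and PAICS, a purine synthesis enzyme, were lower with siFAT1-1 than with siFAT1-2, by -0.63 (SE 0.171, adjusted p = 0.0263, edgeR) and -1.04 (SE 0.316, adjusted p = 0.0411, edgeR).

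The genes most like each of the 9 were named by Pearson's r of log2 CPM over the 12 libraries, centered on the mean of each line. The 12 points share library depth and the S phase level given above, so r is a description. TYMS and RRM2 were each other's closest gene among all those tested (r = 0.985). Outside the 9, TYMS was closest to RFC5 (0.985), POLD1 (0.981) and RFC2 (0.975). RRM2 was closest to GINS2 (0.981), RFC5 (0.981) and ORC6 (0.977), and DTYMK to RFC2 (0.982), ASF1B (0.981) and MCM7 (0.978). RRM1 was closest to ZWINT (0.964), CENPN (0.963) and LMNB1 (0.960), and DUT to C1orf112 (0.978), POLE (0.977) and FAM83D (0.977). TK1 was closest to XRCC1 (0.978), FADS2 (0.978) and PARP1 (0.975), DCK to INTS7 (0.969), TEX30 (0.935) and PER3 (0.933), and DCTPP1 to MRTO4 (0.960), RABEPK (0.958) and UNG (0.948). SAMHD1 was closest to MX2 (0.990), TRIM14 (0.981) and PARP9 (0.981). Within the 9, RRM1, RRM2, TYMS and DUT had r of 0.914 to 0.985 with each other. The r of SAMHD1 was 0.806 with TK1 and 0.051 to 0.491 with the rest.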

How the data were processed

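RNA-seq counts of 12 libraries were used. The authors deposited 1 table of raw gene counts; the submitters' notes name HISAT2, featureCounts and hg38 without versions. The annotation and strand setting are not given in the sources used here. Of the entries, 27 symbols had turned into dates and stayed as deposited. Groups came from the labels. The 9 genes, the lists and the naming rule (pathway genes with P under 0.05 in KD against NC over both lines or within 1, counterparts of the 9, the 3 most alike genes) were chosen with earlier results of these data known.

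Counts were tested with edgeR 4.0.16 in R 4.3.3 (two-sided quasi-likelihood, TMM, filterByExpr with a minimum count of 10, Benjamini-Hochberg over 13887 genes). The model held the cell line and knockdown or siRNA, or the 6 conditions. No sample was dropped. Scripts were tested on simulated data. The alternatives were limma 3.58.1, DESeq2 1.42.0, other size factors, no filter, a replicate block, no cell line term, single lines and leaving out each library. With 2 libraries per condition, p-values of the 6-condition fits measure the spread between experiments at separate times in 1 culture each. In the fits over both lines, the spread also holds differences between the lines in their response to an siRNA. For KD against NC it holds differences between the siRNAs as well.

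The design text says that the experiment was repeated at a separate time, so the numbers pair libraries within a line. Differences between repeats, across genes, had r of 0.0778, 0.219 and 0.242 between the 3 conditions of HN6 and of -0.0337, 0.405 and -0.0216 in HN30. Gene models were from GENCODE 44 and promoter windows from RefSeq. Some items that this rule or the marker lists name are not reported here.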

Additional observations from a re-analysis of the deposited data

Results flagged for a closer look

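SAMHD1 was flagged because its values lay on opposite sides of NC with the siRNAs. Against NC of the same line and repeat, it was higher in 4 of 4 siFAT1-1 libraries and lower in 4 of 4 with siFAT1-2. The share of all genes with this pattern was not counted, and TK2, which the rule did not cover, had it as well. Between the siRNAs, 33.8% of all genes had P under 0.05 by edgeR. The log2 difference of SAMHD1 between the siRNAs was 1.34 (adjusted p = 0.0738, edgeR) and had an adjusted p of 0.0114 with a replicate block. Neither siRNA alone was called against NC (adjusted p = 0.424 for siFAT1-1 and 0.43 for siFAT1-2, edgeR). Groups held 2 libraries, too few to test a single library as an outlier.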

How the results depend on the processing

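Of 1251 alternative values of the log2 fold changes of the 9 genes, 20 newly passed an adjusted p of 0.05 and 7 lost it. A further 3 uncalled values changed direction and moved by at least 1 standard error. The other 1221 kept their side of the threshold. Uncalled values that changed direction by less than 1 standard error were counted among these 1221. No called value changed sign. The number of genes of the 9 called at an adjusted p under 0.05 was 0 for KD against NC over both lines and 1 by DESeq2. For siFAT1-2 it was 0, but 1 without the filter on low counts, 1 with a replicate block, 2 by DESeq2, 2 by limma-voom and 0 to 2 when 1 library was left out. For siFAT1-1 against siFAT1-2 it was 0, but 2 with a replicate block, 1 by DESeq2, 2 by limma-voom and 0 to 1 when 1 library was left out. For HN6 NC against HN30 NC it was 1, but 2 by DESeq2 and 0 to 2 when 1 library was left out. In the main edgeR fits 11.8% of all genes were called for siFAT1-2 against NC, 17.4% between the siRNAs and 32.6% between the NC groups. The shares of all genes under the alternatives are not given here for these comparisons. The counts of the 9 under them therefore cannot be set against all genes. The cause of these shifts was not tested.

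The median log2 fold change of the 9 genes over both lines ran from -0.76 to -0.47 when 1 library was left out, and the median interaction from 0.02 to 0.84. The number of the 9 with P under 0.05 was 4 over both lines and 6 in HN30 with a replicate block. When 1 library was left out, the number over both lines was highest without repeat 1 of HN6 NC or repeat 2 of siFAT1-2 in either line. The shares of all genes with P under 0.05 in these fits are not given here. All KD libraries lay below both NC libraries for 1 gene, and for 1 to 3 genes when 1 library was left out (3 without repeat 1 of HN6 NC). Leaving out a library can only keep or raise this count, so its range does not measure stability. The share of all genes that met the rule with a library left out is not given here. Over all genes, 76 had an adjusted p under 0.05 for KD against NC, against 44 with a replicate block, 640 by DESeq2, 4 without a cell line term and 12 to 61 when 1 library was left out. There were 426 DEGs, and 231 without a cell line term. The block changed no other call of the 9 genes. The interaction and line comparisons with no filter, the block, DESeq2 and left-out libraries, the other size factors and left-out libraries for the count of genes below NC, and the MANE Select length were added after seeing the data. With 2 libraries a group, the main edgeR fits called no absolute log2 difference below 1 among the 9 genes at an adjusted p under 0.05. Outside the 9 some differences below 1 were called, as for TK2 and CDA above. Where leaving out a library left a condition with 1, that library was assumed to vary like the other groups.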
